A study of Mus musculus with 12 samples.

Results

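The genes described here are 9 Irf and Stat transcription factors of the mouse striatum, Irf7, Irf9, Irf1, Irf2, Irf3, Irf5, Irf8, Stat2 and Stat3. They were taken by gene symbol from a named list, and all 9 of 9 had a row among the 15397 genes measured by RNA sequencing of bulk striatal RNA. The 4 groups of mice, with 3 libraries each, were R6/2 mice on PLX3397, R6/2 mice on vehicle, wild-type mice on PLX3397 and wild-type mice on vehicle; the labels give the strain of every animal as C57BL/6. R6/2 mice are a model of Huntington's disease that carries, as a transgene, the promoter and the first exon of the human huntingtin gene with an expanded CAG repeat. PLX3397 is an inhibitor of Csf1r, the receptor that microglia need to survive, and was given in the chow at 275 ppm between 7 and 11 weeks of age, so the animals had reached 11 weeks when the drug period ended. The design text gives 3 mice per group.

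Interferon regulatory factors bind interferon-stimulated response elements, and Stat proteins are latent factors that Jak kinases phosphorylate at cytokine receptors. After type I interferon binds its receptor, Stat2 and Irf9 form, with a further Stat protein, the complex ISGF3, which turns on the interferon-induced genes, among them Irf7 itself. In the brain, Irf8 and Irf5 are best known as microglial factors, whereas Irf3, Irf2, Stat2 and Stat3 are expressed by many cell types.

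The promoters of 5 of the 9 genes are shown because they differ in the elements that these factors bind. RefSeq windows on GRCm38.p6, of 300 bases each and running from 250 bases before the transcription start to 50 after it, matched all 9 genes in 12 windows. Capitals mark matches to the interferon-stimulated response element, searched as GAAA, any 2 bases and GAAA, and to the gamma-activated site bound by Stat dimers, searched as TTCNNNGAA, on both strands; no matches overlapped.
Irf7, chr7:141266375-141266674, minus strand: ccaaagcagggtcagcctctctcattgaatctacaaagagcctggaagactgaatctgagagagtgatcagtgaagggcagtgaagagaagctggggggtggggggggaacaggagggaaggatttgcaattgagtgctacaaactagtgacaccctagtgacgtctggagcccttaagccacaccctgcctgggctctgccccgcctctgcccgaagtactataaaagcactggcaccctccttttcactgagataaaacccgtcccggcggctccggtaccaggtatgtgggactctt
Irf1, chr11:53769764-53770063, plus strand: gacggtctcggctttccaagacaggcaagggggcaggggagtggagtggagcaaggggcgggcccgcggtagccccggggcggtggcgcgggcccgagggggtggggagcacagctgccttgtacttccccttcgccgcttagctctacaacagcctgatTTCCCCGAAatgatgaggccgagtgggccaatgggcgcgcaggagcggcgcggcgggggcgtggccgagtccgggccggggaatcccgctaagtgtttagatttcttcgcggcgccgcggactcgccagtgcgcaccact
Irf8, chr8:120736108-120736407, plus strand: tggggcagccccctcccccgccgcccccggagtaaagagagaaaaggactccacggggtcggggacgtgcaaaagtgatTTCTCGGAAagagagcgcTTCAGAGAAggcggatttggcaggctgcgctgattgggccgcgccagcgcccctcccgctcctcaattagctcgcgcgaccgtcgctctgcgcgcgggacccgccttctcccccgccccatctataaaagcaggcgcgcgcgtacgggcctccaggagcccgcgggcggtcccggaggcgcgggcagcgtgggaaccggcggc
Irf2, chr8:46739495-46739794, plus strand: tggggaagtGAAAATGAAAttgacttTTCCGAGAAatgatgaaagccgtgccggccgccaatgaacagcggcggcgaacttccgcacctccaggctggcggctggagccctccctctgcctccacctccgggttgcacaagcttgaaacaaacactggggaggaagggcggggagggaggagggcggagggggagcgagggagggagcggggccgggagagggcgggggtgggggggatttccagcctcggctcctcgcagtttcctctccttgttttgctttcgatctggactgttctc
Stat2, chr10:128270248-128270547, plus strand: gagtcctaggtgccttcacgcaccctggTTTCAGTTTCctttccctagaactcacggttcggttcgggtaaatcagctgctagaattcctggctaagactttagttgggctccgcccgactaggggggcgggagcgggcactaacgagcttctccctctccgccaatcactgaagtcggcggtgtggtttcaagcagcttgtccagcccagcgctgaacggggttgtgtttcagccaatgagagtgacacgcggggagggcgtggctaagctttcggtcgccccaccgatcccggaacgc
The Irf2 window held a response element 241 to 232 bases before the start and a gamma-activated site 224 to 216 bases before it. The Stat2 window held a response element on the minus strand, 222 to 213 bases before the start. Gamma-activated sites lay 90 to 82 bases before the Irf1 start, and at 171 to 163 and 153 to 145 bases before the Irf8 start. Neither element was found in the windows of Irf7, Irf9, Irf3, Irf5 and Stat3. Among 32851 RefSeq windows of the same length, 3.44% held the response element and 8.30% the gamma-activated site.

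The values deposited were log2 CPM, a logarithm of each gene's reads relative to its library's total, from which whole reads could be recovered; 18902120 to 24293208 reads per library were assigned to genes. Markers of striatal projection neurons were present in every library, and their mean level was lower in R6/2 libraries (5.40 to 7.21 log2 CPM) than in wild-type libraries (7.48 to 9.49). Other libraries stood apart: replicate 1 of R6/2 vehicle and replicate 1 of wild-type PLX3397 had mean choroid plexus marker levels of 6.36 and 5.06 log2 CPM, against 1.26 to 3.48 in the other 10 libraries. Replicates 1 and 2 of R6/2 PLX3397 had cortical neuron marker levels of 1.09 and 1.22 log2 CPM, against 5.89 in replicate 3. In replicate 1 of wild-type PLX3397 the level was 2.10, and in the remaining 8 libraries it was 3.74 to 6.74. Calls that end without these libraries are given below. In bulk tissue, fewer cells of a type and less RNA per cell cannot be told apart, and this holds for every level below.

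Scaled to exon length, Irf3 and the Stat genes were the most abundant of the 9 in every group. On vehicle Irf7 changed its place in the order most with genotype, by 3 places, whereas on PLX3397 it moved by 1 place, as Irf1, Irf3, Stat3, Irf5 and Irf8 did. In wild-type vehicle striatum the order, in mean RPKM (reads scaled to exon length and library size), was Irf3 at 6.33, Stat3 at 6.17, Stat2 at 4.85, Irf2 at 2.34, Irf9 at 2.28, Irf5 at 1.38, Irf1 at 1.34, Irf8 at 0.828 and Irf7 at 0.481 (n = 3). The ranges of Irf3 and Stat3, of Irf2 and Irf9, of Irf5 and Irf1, and of Irf8 and Irf7 overlapped, so these neighbours could not be ordered. In R6/2 vehicle striatum Irf7 took position 6 of 9, at 2.92 ± 0.50 RPKM (SD, n = 3), within the ranges of Irf2 and Irf1 (3.02 and 2.54), and Irf8 was last at 0.685. On PLX3397 the microglial factors took the last places in both genotypes: Irf5 at 0.223 and Irf8 at 0.0516 in R6/2, and Irf8 at 0.351 and Irf5 at 0.0888 in wild type, without overlap between these neighbours.

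**Figure D1:**
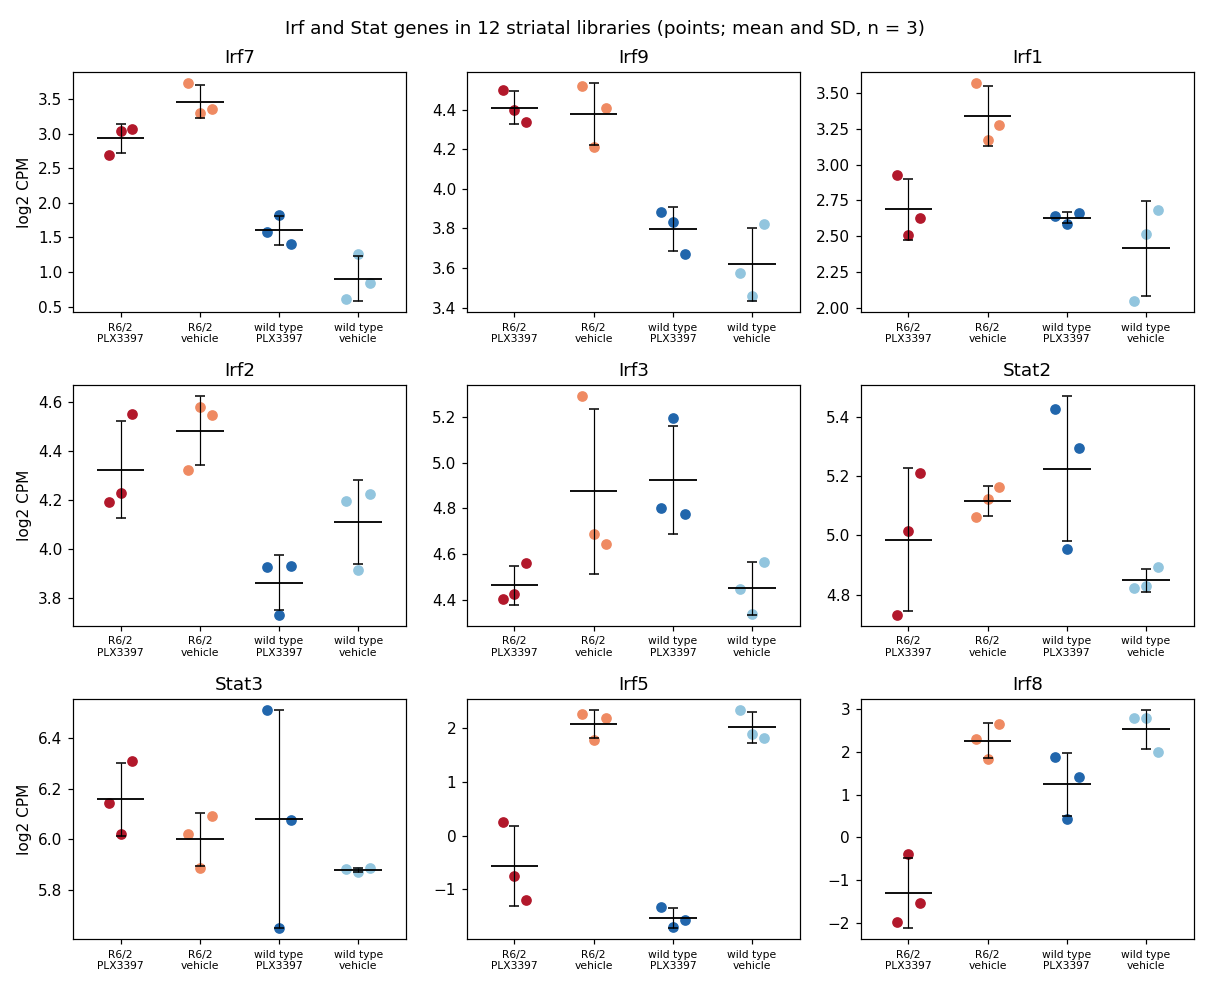
Log2 CPM of the 9 Irf and Stat genes (vertical axes, which differ between panels) in the 12 libraries, by group; points are libraries, bars the mean and SD (n = 3 each). Irf7 and Irf9 sit higher in both R6/2 groups than in both wild-type groups, while Irf5 and Irf8 are lowest in the PLX3397 groups.

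On vehicle, R6/2 set against wild-type striatum asks what the transgene changes while microglia are present. Irf7, Irf9 and Irf1 rose in R6/2 striatum, and none of the 9 fell. These 3 calls stand beside 0.617% of all genes called higher and 2.11% called in either direction (limma, Benjamini-Hochberg adjusted p under 0.05). Irf7, the factor that amplifies type I interferon production, had 3.73, 3.30 and 3.35 log2 CPM in R6/2 vehicle libraries, against 0.61, 1.26 and 0.85 in wild-type vehicle libraries. In reads these were 349, 193 and 196 against 26, 51 and 40, and the groups were far from overlapping. The log2 change was 2.56 ± 0.23 (SE; 5.88-fold; limma adjusted p = 0.00368), and it was called under all 23 alternatives, the omission of both choroid-rich libraries included.

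Irf9, the DNA-binding subunit of ISGF3, had 4.52, 4.21 and 4.41 log2 CPM in R6/2 vehicle libraries, against 3.58, 3.46 and 3.82 in wild-type vehicle libraries. The groups did not overlap, and the log2 change was 0.76 ± 0.14 (SE; 1.70-fold; limma adjusted p = 0.0321). Leaving out replicate 1 or 2 of wild-type vehicle, or any 1 of the 3 R6/2 vehicle libraries, ended the Irf9 call, with limma adjusted p between 0.0834 and 0.150 and log2 changes between 0.68 and 0.85. Irf1, an early interferon-gamma response factor, had 3.57, 3.17 and 3.28 log2 CPM in R6/2 vehicle libraries, against 2.04, 2.52 and 2.68 in wild-type vehicle libraries. These groups did not overlap either; the log2 change was 0.93 ± 0.21 (SE; limma adjusted p = 0.0476). The Irf1 call rested close to the threshold, since it held in only 7 of 23 alternatives: it was lost, for example, without replicate 1 of wild-type vehicle (log2 change 0.74, limma adjusted p = 0.194), and 9 of the other 11 libraries, when left out singly, also ended it, with adjusted p between 0.0511 and 0.168.

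Microglial marker levels overlapped between the genotypes on vehicle: 0 of 23 were called between R6/2 and wild type by limma and 0 by limma-voom, and 1 passed an unadjusted p of 0.05. Their mean level was 4.01 to 4.55 log2 CPM in R6/2 vehicle libraries and 4.17 to 4.37 in wild-type vehicle libraries. Endothelial markers lay at 4.80 to 5.08 log2 CPM in R6/2 vehicle libraries, against 3.69 to 4.63 in wild-type vehicle libraries, with 0 of 8 called by limma or limma-voom and 2 at an unadjusted p under 0.05. Astrocyte markers lay at 7.22 to 7.69 log2 CPM in R6/2 vehicle libraries and 7.93 to 8.24 in wild-type vehicle libraries. Of these 8 markers 2 fell in limma, limma-voom called 1, and 5 had an unadjusted p under 0.05. Over all genes 2.11% were called in this comparison. The part of the endothelial and astrocyte levels in the Irf7, Irf9 and Irf1 results was not tested.

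The other 6 genes did not pass the test on vehicle. Stat2, the partner of Irf9, had 5.06, 5.12 and 5.16 log2 CPM in R6/2 vehicle libraries, against 4.82, 4.83 and 4.89 in wild-type vehicle libraries. Although these values did not overlap, the log2 change of 0.27 ± 0.15 missed the threshold (limma adjusted p = 0.310); a gap of this kind was seen in 16.4% of all genes. For Irf2, an antagonist of Irf1 at shared sites, the change was 0.37 ± 0.15 (adjusted p = 0.183), and for Irf3, the latent factor that viral sensors activate, 0.43 ± 0.18 (adjusted p = 0.205). Stat3, the acute-phase and gp130 factor, changed by 0.12 ± 0.18 (limma adjusted p = 0.727). For the microglial pair the estimates were 0.06 for Irf5 and -0.26 for Irf8 (limma adjusted p = 0.943 and 0.777).

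On PLX3397, with most microglial RNA gone from both genotypes, Irf7 and Irf9 were again higher in R6/2. Irf7, Irf9 and Irf2 rose and Irf8 fell, 4 of 9 genes, in a comparison in which 35.0% of all genes were called, 17.1% higher and 17.9% lower. Values without overlap were also common there, at 22.6% of all genes for higher and 24.2% for lower ones. Irf7 had 2.69, 3.04 and 3.07 log2 CPM in R6/2 PLX3397 libraries, against 1.58, 1.82 and 1.41 in wild-type PLX3397 libraries, without overlap (log2 change 1.33 ± 0.23 SE; 2.52-fold; limma adjusted p = 0.00226). Irf9 had 4.50, 4.40 and 4.34 log2 CPM in R6/2 PLX3397 libraries, against 3.88, 3.83 and 3.67 in wild-type PLX3397 libraries, again without overlap (log2 change 0.62 ± 0.14 SE; 1.53-fold; limma adjusted p = 0.00888). Irf1 was not called, with 2.92, 2.51 and 2.63 log2 CPM in drug-treated R6/2 libraries and 2.64, 2.59 and 2.66 in drug-treated wild-type libraries (log2 change 0.06 ± 0.21 SE; limma adjusted p = 0.841), and the groups overlapped.

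Irf2 had 4.19, 4.23 and 4.55 log2 CPM in R6/2 PLX3397 libraries, against 3.93, 3.73 and 3.93 in wild-type PLX3397 libraries. The log2 change was 0.46 ± 0.15 (SE; limma adjusted p = 0.0363), was called in 12 of 23 alternatives and was 0.29 once the trend of fold change with GC content and length was removed (limma adjusted p = 0.155). Leaving out 1 library ended the Irf2 call for replicates 2 and 3 of wild-type PLX3397, replicate 1 of wild-type vehicle, replicate 3 of R6/2 vehicle and each R6/2 PLX3397 replicate, with adjusted p between 0.0515 and 0.120. Without both R6/2 PLX3397 libraries low in cortical genes, 0 of the 9 genes were called on PLX3397, while 237 of all genes still were and 3577 passed an unadjusted p of 0.05. In that fit, which leaves 1 R6/2 PLX3397 library assumed to vary like the other groups, the log2 changes were 1.47 for Irf7, 0.54 for Irf9, 0.69 for Irf2 and -2.77 for Irf8 (limma adjusted p = 0.0656, 0.198, 0.117 and 0.0543). Irf3 pointed down on PLX3397 (log2 change -0.46 ± 0.18, adjusted p = 0.0717) and turned to 0.07 without the GC and length trend; it was called without replicate 1 of R6/2 vehicle (limma adjusted p = 0.0279).

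Averaged over vehicle and PLX3397, with 6 libraries against 6, Irf7, Irf9, Irf1 and Irf2 rose and Irf8 fell in R6/2, beside 22.4% of all genes called, 10.5% higher and 11.9% lower. The averaged log2 change was 1.94 ± 0.16 for Irf7 (limma adjusted p = 0.000101) and 0.69 ± 0.10 for Irf9 (adjusted p = 0.00148), and both were called under all 22 alternatives. It was 0.41 ± 0.11 for Irf2 (limma adjusted p = 0.0193), and the call ended without replicate 2 of wild-type vehicle or replicate 2 of R6/2 vehicle (adjusted p = 0.0515 and 0.0506). For Irf1 it was 0.49 ± 0.15 (limma adjusted p = 0.0337), a call kept in 11 of 22 alternatives and lost without any 1 of 8 libraries, at adjusted p between 0.0526 and 0.0822. Irf8 averaged -1.40 ± 0.34 (limma adjusted p = 0.0144).

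**Figure D2:**
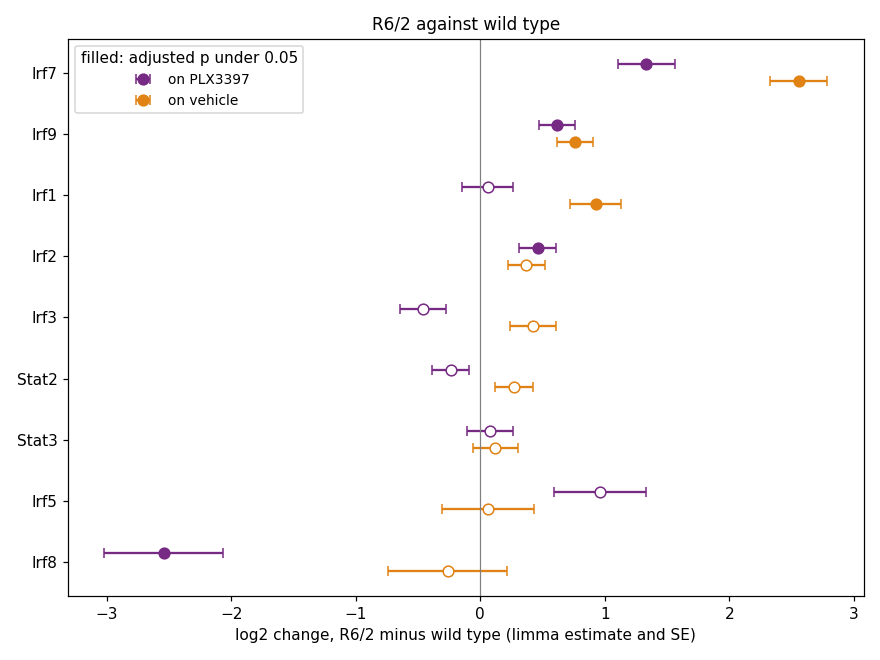
Log2 change of R6/2 minus wild type for the 9 genes on PLX3397 and on vehicle; points are limma estimates, bars the SE, and filled points passed an adjusted p of 0.05. Irf7 lies at 1.33 on PLX3397 and 2.56 on vehicle, and Irf8 at -2.54 on PLX3397 and -0.26 on vehicle.

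The rest of the interferon pathway was read from lists of genes by role. No interferon ligand of 12 listed had a measured row. Of 6 interferon receptor genes and 4 Jak kinase genes, 0 were called between R6/2 and wild type on vehicle or on PLX3397 by limma or limma-voom. Over all genes 2.11% were called on vehicle and 35.0% on PLX3397. At an unadjusted p under 0.05 stood 2 receptors and 2 kinases on vehicle, and 1 of each on PLX3397. Estimates above 0 were found for 6 of 6 receptors and 3 of 4 kinases on vehicle. On PLX3397 they were found for 3 of 6 receptors and 4 of 4 kinases. Ifngr2, a chain of the interferon-gamma receptor, had 5.45 ± 0.11 log2 CPM in R6/2 vehicle striatum and 4.56 ± 0.10 in wild-type vehicle striatum (SD, n = 3), and was called in the average over drug but not within vehicle or PLX3397 (log2 change 0.65 ± 0.16, limma adjusted p = 0.0163).

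Part of the genes known to be induced through ISGF3 rose in R6/2, with and without the drug. Of 43 measured, 8 rose, 0 fell and 35 were not called on vehicle, where 0.617% of all genes were called higher; the median log2 change was 0.97 beside 0.01 over all genes. On PLX3397, 18 rose, 0 fell and 25 were not called, where 17.1% of all genes were called higher, with a median of 0.80 against 0.00 over all genes. In the average over drug 31 rose, beside 10.5% of all genes called higher. Parp12, a mono-ADP-ribosyltransferase, had 4.38 ± 0.15 log2 CPM in R6/2 vehicle striatum and 3.24 ± 0.14 in wild-type vehicle striatum (SD, n = 3; log2 change 1.13, limma adjusted p = 0.0161). On PLX3397 its values were 4.33 ± 0.21 in R6/2 and 3.08 ± 0.09 in wild type (log2 change 1.26, limma adjusted p = 0.000603). Dtx3l, a ubiquitin ligase, and Parp9, which forms a complex with it, rose by 1.31 and 1.48 on vehicle (adjusted p = 0.0162 and 0.0320). Oasl2, a relative of the 2-5A synthetases, rose by 1.99 on vehicle and 1.60 on PLX3397 (limma adjusted p = 0.0296 and 0.00686). Eif2ak2, the kinase PKR that double-stranded RNA activates, rose by 2.47 on PLX3397, and Ddx60, a helicase, by 3.42 (limma adjusted p = 0.00104 and 0.00191). The count on vehicle ranged between 0 and 21 over the alternatives and was 0 without replicate 1 or 2 of wild-type vehicle or replicate 2 of R6/2 vehicle. It was 1 without replicate 3 and 2 without replicate 1 of R6/2 vehicle. With all libraries 30 of the 43 passed an unadjusted p of 0.05, limma-voom called 5, and the median stayed between 0.81 and 1.15 in these 5 fits. On PLX3397 the count was 1 of 43 without both R6/2 libraries low in cortical genes.

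**Figure D3:**
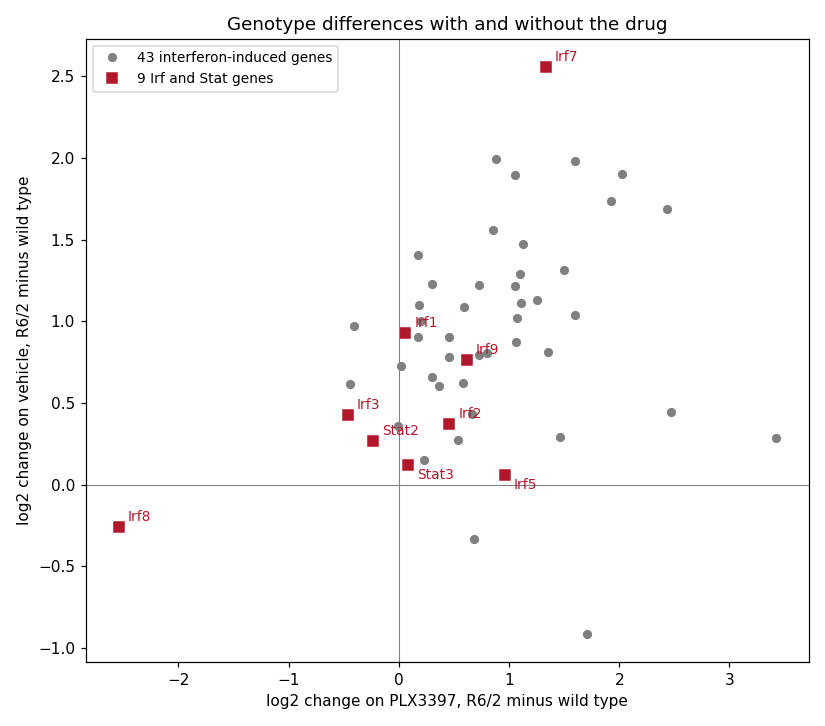
Log2 change of R6/2 minus wild type on PLX3397 (horizontal axis) and on vehicle (vertical axis) for 43 genes induced through ISGF3 (grey) and the 9 Irf and Stat genes (red squares, named); the 2 axes share no library. Irf7 is the highest point on vehicle, at 2.56, and 40 of the 43 grey genes lie right of 0.

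Sensors and feedback genes gave a few calls on vehicle, where 0.617% of all genes were called higher. Of 20 measured pattern-recognition sensors and adaptors, 2 rose on vehicle: Ddx58, which encodes the RNA sensor RIG-I, by 1.01 ± 0.22, and Myd88, the adaptor of most Toll-like receptors, by 0.81 ± 0.18 (limma adjusted p = 0.0434 and 0.0481). Both calls were lost in limma-voom, which called 0 of the 20 (4 at an unadjusted p under 0.05 in limma). On PLX3397, 7 of 20 rose and 0 fell, where 17.1% of all genes were called higher and 17.9% lower, led by Ddx58 (1.45 ± 0.22), Traf3 (0.78 ± 0.16), Trim25 (1.04 ± 0.24) and Tlr3 (0.99 ± 0.24), with limma adjusted p of 0.00124, 0.00519, 0.00827 and 0.0106. Usp18, which removes ISG15 from proteins and shuts down type I interferon receptor signalling, was the 1 of 14 feedback genes that rose on vehicle (log2 change 2.22 ± 0.37, limma adjusted p = 0.0238), and it rose by 1.48 ± 0.37 on PLX3397 (adjusted p = 0.0113). On PLX3397, 5 of the 14 feedback genes were called, a share near the 35.0% of all genes. Beside Usp18, the Stat inhibitors Pias1 and Pias2 rose, by 0.86 and 0.62, and Cish, a SOCS-family inhibitor, and Irf2bp2, a corepressor of Irf2, fell by 1.19 and 0.47 (limma adjusted p = 0.00328, 0.0162, 0.00612 and 0.0258).

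Around Stat3 no gene passed the test on vehicle. Of its 8 receptor genes and 10 measured target genes, 0 were called there by limma or limma-voom. At an unadjusted p under 0.05 stood 0 receptors and 2 targets. In that comparison 2.11% of all genes were called, while on PLX3397 35.0% were, 17.1% higher and 17.9% lower. On PLX3397 the receptor chains Lifr and Il6st, which encodes gp130, rose by 1.30 and 0.95, and Il10ra, Cntfr and Il11ra1 fell by 1.89, 0.60 and 1.17 (limma adjusted p = 0.000764, 0.0161, 0.00127, 0.0034 and 0.0122). Of the targets, Hif1a and Mcl1 rose by 1.16 and 0.43, and Junb and Myc fell by 2.27 and 1.01 (adjusted p = 0.000625, 0.0309, 0.00373 and 0.00457). Only 2 of 9 listed ligands, Lif and Ctf1, were measured, and neither was called by limma or limma-voom.

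Of the factors known from microglia, Irf5 fell with PLX3397 in both genotypes and Irf8 in R6/2. In wild type Irf5 was the 1 of the 9 genes called, beside 14.2% of all genes called and 8.30% called lower. In R6/2 both fell, beside 1.10% of all genes called and 1.04% called lower. Averaged over genotype, both fell beside 1.26% of all genes called and 1.25% called lower, Irf5 by 3.09 ± 0.26 and Irf8 by 2.42 ± 0.34 on the log2 scale (limma adjusted p = 3.96e-05 and 0.00204). Because every fold is on a scale with about 2 reads added to each gene in each library, it understates the loss of genes left with few reads.

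Irf5, which acts downstream of Toll-like receptors in myeloid cells, had 0.25, -0.75 and -1.20 log2 CPM in drug-treated R6/2 libraries, against 2.26, 1.78 and 2.18 in R6/2 vehicle libraries. It had -1.32, -1.70 and -1.57 in wild-type PLX3397 libraries, against 2.34, 1.89 and 1.81 in wild-type vehicle libraries. In reads, 27, 12 and 8 were left in R6/2 and 6, 5 and 5 in wild type, and neither pair of groups overlapped. The log2 change was -2.64 ± 0.37 in R6/2, which left 16.0%, and -3.54 ± 0.37 in wild type, which left 8.60% (limma adjusted p = 0.00318 and 0.000515). The call in R6/2 was lost in 1 of 23 alternatives, the fit of those 2 groups alone (adjusted p = 0.0575). Under the drug, Irf5 was higher by 0.96 ± 0.37 in R6/2 than in wild type, which missed the threshold (limma adjusted p = 0.0635) but passed it without replicate 3 of R6/2 PLX3397 (log2 change 1.28, adjusted p = 0.0261) and without the GC and length trend (1.43, adjusted p = 0.0212). Irf5 overlaps the neighbouring gene Tnpo3 in the annotation, and whether counting used strand is not given in the sources used here. The same limit holds for Stat2, which overlaps Apof, for Irf2, which overlaps Gm31172 and Gm39170, and for Stat3, which overlaps Gm46295.

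Irf8, a factor required for microglial development, followed the opposite order. It had -1.98, -0.39 and -1.52 log2 CPM in R6/2 PLX3397 libraries, against 2.29, 1.84 and 2.65 in R6/2 vehicle libraries. It had 1.89, 0.43 and 1.41 in wild-type PLX3397 libraries, against 2.78, 2.79 and 1.99 in wild-type vehicle libraries. In reads, 4, 16 and 6 were left in R6/2 and 70, 29 and 52 in wild type, and again neither pair overlapped. In R6/2 the log2 change was -3.56 ± 0.48, which left 8.48% (limma adjusted p = 0.00241; called under all 23 alternatives). In wild type it was -1.28 ± 0.48, which left 41.2% and was not called under any of the 23 alternatives (limma adjusted p = 0.0880); 17.3% of all genes were lower without overlap in this comparison. On PLX3397, Irf8 fell in R6/2 relative to wild type, by 2.54 ± 0.48 on the log2 scale (limma adjusted p = 0.00332), a call lost only without both R6/2 PLX3397 libraries low in cortical genes, as given above. The interaction of genotype and drug was -2.28 ± 0.68 (limma adjusted p = 0.0422) and was called in 7 of 22 alternatives; it was lost without any 1 of 10 libraries, at adjusted p between 0.0540 and 0.0937 and log2 values between -1.94 and -2.49.

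**Figure D4:**
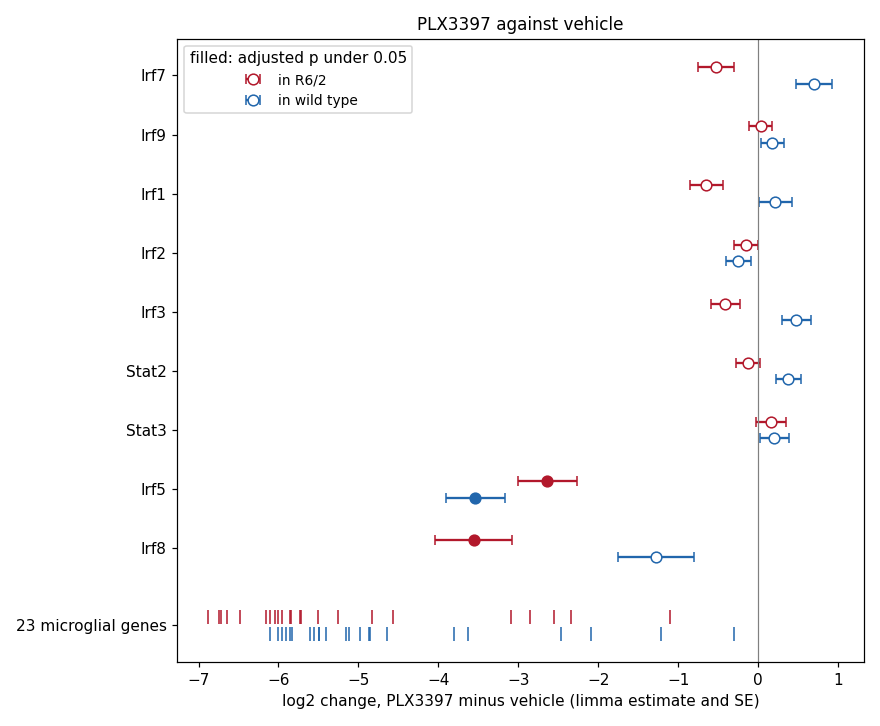
Log2 change of PLX3397 minus vehicle for the 9 genes in R6/2 and in wild type; points are limma estimates, bars the SE, filled points passed an adjusted p of 0.05, and the ticks at the bottom are 23 microglial marker genes. Irf5 is filled in both genotypes and Irf8 in R6/2, while Irf8 in wild type is open, and the medians of the ticks are -5.84 in R6/2 and -5.16 in wild type.

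In drug-treated wild-type striatum the share of Irf8 left was above that of most listed microglial markers. Of 23 microglial markers, 21 fell in R6/2 and 21 in wild type, with a median of 1.75% left in R6/2 and 2.80% in wild type. In R6/2, 18 of the 23 had less left than Irf8 and 20 had less left than Irf5. In wild type, 21 of the 23 had less left than Irf8 and 19 less than Irf5, and the exceptions above Irf8 were Ikzf1, a lymphoid and myeloid zinc-finger factor, at 43.2% and Aif1 at 81.0%. Spi1, which encodes the PU.1 partner of Irf8, had 0, 0 and 6 reads in R6/2 PLX3397 libraries, against 93, 49 and 79 in R6/2 vehicle libraries, and 2, 0 and 0 in wild-type PLX3397 libraries, against 52, 67 and 61 in wild-type vehicle libraries. By the share measure, 4.21% of Spi1 was still left in R6/2 and 4.01% in wild type. With about 2 reads added to each gene, the lowest share possible is higher for genes with fewer vehicle reads. The ranks of Irf8 and Irf5 among the 23 therefore depend on vehicle level too. Csf1r, the target of the drug, had 12, 18 and 59 reads in R6/2 PLX3397 libraries and 54, 70 and 8 in wild-type PLX3397 libraries. The 6 vehicle libraries had 1777 to 2844 Csf1r reads. Between the drug-treated genotypes, limma called 3 of the 23 markers lower in R6/2 (Trem2, Tmem119 and Aif1) and 0 higher, and limma-voom called 2. The median log2 change was -0.43, with 4 of the 23 above 0, beside 17.9% of all genes called lower there. Border macrophages, another cell type that can express Irf8, were represented by 3 of 7 listed markers, with mean levels of -1.48 to -0.66 log2 CPM in R6/2 PLX3397 libraries and -1.25 to -0.89 in wild-type PLX3397 libraries. Of lymphocyte markers 1 of 7, Cd4, and of monocyte and neutrophil markers 0 of 5 had a measured row. Between R6/2 and wild type, the log2 change of Cd4 was -5.38 on PLX3397, which was called, and -3.65 on vehicle, which was not. With the drug it was 1.15 in wild type and -0.57 in R6/2, neither called. The part of such cells in the wild-type Irf8 reads was not tested.

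The genes whose levels were most like Irf8 over the 12 libraries, by Pearson's r among 14737 genes, were Nckap1l at 0.97, Il10ra at 0.96, Inpp5d at 0.95, Ikzf1 at 0.93 and Pdgfc at 0.91. These are descriptive values with no test, and the libraries of a group share genotype and drug. Nckap1l, a haematopoietic subunit of the actin-regulating WAVE complex, had 14, 45 and 31 reads in R6/2 PLX3397 libraries and 153, 121 and 97 in wild-type PLX3397 libraries. Il10ra, the ligand-binding chain of the interleukin-10 receptor, had 12, 15 and 16 reads in R6/2 PLX3397 libraries and 51, 39 and 67 in wild-type PLX3397 libraries. Inpp5d, the inositol phosphatase SHIP1, had 31, 101 and 79 reads in R6/2 PLX3397 libraries and 153, 101 and 123 in wild-type PLX3397 libraries. With PLX3397, 7.94% of Nckap1l, 11.3% of Il10ra, 18.4% of Inpp5d and 17.0% of Ikzf1 were left in R6/2. In wild type 33.7%, 37.4%, 37.1% and 43.2% of them were left. For Irf8 the shares were 8.48% in R6/2 and 41.2% in wild type. Pdgfc kept 75.3% in R6/2 and 97.0% in wild type and was not called for the drug in either (limma adjusted p = 0.300 and 0.860). Ikzf1 was not called for the drug in either genotype (limma adjusted p = 0.105 in R6/2 and 0.186 in wild type). Between the drug-treated genotypes Ikzf1 also missed the threshold (limma adjusted p = 0.0526). The interaction was called for Nckap1l and Il10ra, but not for Inpp5d, Ikzf1 and Pdgfc (limma adjusted p = 0.218, 0.280 and 0.222). In log2 CPM none of these 5 genes overlapped between the drug-treated genotypes, but they were chosen for likeness to Irf8, and 24.2% of all genes were also lower without overlap there; the gap was narrowest for Inpp5d, at 2.12 for the highest R6/2 library and 2.16 for the lowest wild-type library.

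**Figure D5:**
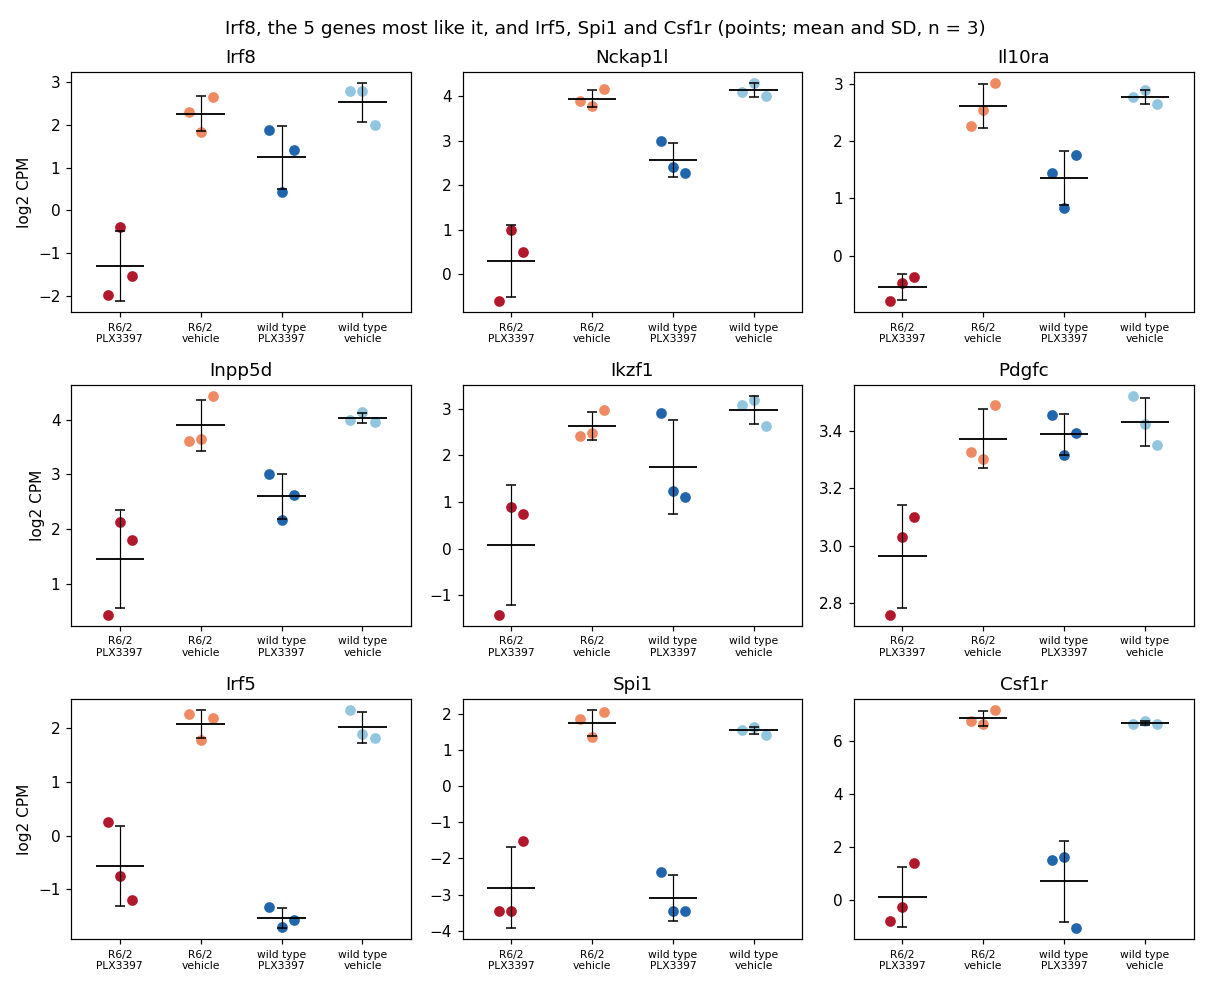
Log2 CPM by group (vertical axes, which differ between panels) of Irf8, the 5 genes most like it over the 12 libraries, and Irf5, Spi1 and Csf1r; points are libraries, bars the mean and SD (n = 3 each). Irf8, Nckap1l and Il10ra are lower in R6/2 PLX3397 than in wild-type PLX3397 libraries without overlap, while Spi1 and Csf1r overlap between these groups. Of all 23 microglial markers, 3 were called lower in R6/2 between these groups by limma, with a median log2 change of -0.43.

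The other 7 genes did not pass the test for the drug in either genotype. For Irf7 the log2 change of PLX3397 against vehicle was -0.53 ± 0.23 in R6/2 (limma adjusted p = 0.372) and 0.70 ± 0.23 in wild type (adjusted p = 0.0640). Neither pair of groups overlapped, and such gaps were seen in 11.9% of all genes for lower values in R6/2 and in 18.8% for higher values in wild type. Irf1 had -0.65 ± 0.21 in R6/2 and 0.21 in wild type (limma adjusted p = 0.262 in R6/2), without overlap in R6/2. Irf9 stayed within 0.18 on the log2 scale in both genotypes: 0.03 in R6/2 and 0.18 in wild type (limma adjusted p = 0.936 and 0.410). Stat3 had 6.14, 6.02 and 6.31 log2 CPM in R6/2 PLX3397 libraries, against 6.02, 5.89 and 6.09 in R6/2 vehicle libraries, and 6.51, 5.65 and 6.08 in wild-type PLX3397 libraries, against 5.88, 5.87 and 5.88 in wild-type vehicle libraries. Both pairs overlapped, and the drug-treated wild-type libraries spread the most. Stat2 gave -0.13 in R6/2 and 0.38 ± 0.15 in wild type, and Irf2 -0.16 and -0.25 (limma adjusted p = 0.708, 0.107, 0.644 and 0.265).

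The interaction, which asks whether the drug acts differently in R6/2, was called for Irf7, Irf3 and Irf8, all lower, beside 17.0% of all genes called and 7.71% called lower. For Irf7 it was -1.22 ± 0.32 (limma adjusted p = 0.0309). For Irf3 it was -0.89 ± 0.26 (limma adjusted p = 0.0415), from 4.40, 4.43 and 4.56 log2 CPM in R6/2 PLX3397 libraries against 5.29, 4.69 and 4.65 in R6/2 vehicle libraries, and 4.80, 5.20 and 4.78 in wild-type PLX3397 libraries against 4.45, 4.33 and 4.57 in wild-type vehicle libraries. The highest value of Irf3 was in the R6/2 vehicle library with high choroid plexus markers, and without that library the Irf3 interaction was -0.68 (limma adjusted p = 0.0684). After removal of the GC and length trend the values were -0.82 for Irf7, -0.29 for Irf3 and -2.07 for Irf8, and 0 of the 9 were called (adjusted p = 0.142, 0.280 and 0.107), while 567 of all genes were and 3184 passed an unadjusted p of 0.05. The Irf7 interaction also ended without replicate 2 of wild-type PLX3397, replicate 1 of wild-type vehicle, replicate 1 of R6/2 vehicle or replicates 1 or 2 of R6/2 PLX3397 (adjusted p between 0.0543 and 0.0803). The Irf3 interaction ended without 7 libraries, each left out singly, at limma adjusted p between 0.0502 and 0.0974. The Irf1 interaction, -0.87 ± 0.29, missed the threshold (adjusted p = 0.0619) and passed it without replicate 3 of wild-type vehicle (adjusted p = 0.0477). The Irf3 drug change in wild type, 0.48 ± 0.18 (adjusted p = 0.0976), passed without replicate 1 of R6/2 vehicle (limma adjusted p = 0.0451).

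Of the 20 sensors and adaptors, 2 fell with the drug in R6/2 and 6 in wild type, beside 1.04% and 8.30% of all genes called lower. Tlr4 and Tlr3 were among the 6 in wild type. Tmem173, which encodes the DNA-sensing adaptor STING, had -0.61 ± 0.45 log2 CPM in R6/2 PLX3397 striatum against 2.19 ± 0.15 in R6/2 vehicle striatum, and -0.89 ± 0.14 in wild-type PLX3397 striatum against 1.94 ± 0.15 in wild-type vehicle striatum (SD, n = 3). Its reads were 10 to 20 in R6/2 PLX3397 libraries and 78 to 125 in R6/2 vehicle libraries, and 9 to 10 in wild-type PLX3397 libraries and 69 to 91 in wild-type vehicle libraries. It fell by 2.80 in R6/2 and 2.83 in wild type (limma adjusted p = 0.000389 and 0.000381). Tlr7, an endosomal RNA receptor, fell by 4.20 in R6/2 and 3.59 in wild type (adjusted p = 0.000956 and 0.00249), and was left with 0 to 7 reads in R6/2 PLX3397 libraries and 2 to 4 in wild-type PLX3397 libraries. Ptpn6, the haematopoietic phosphatase SHP-1, fell by 3.42 in R6/2 and 2.67 in wild type (limma adjusted p = 0.0024 and 0.00854), and it was the 1 of 14 feedback genes that fell in R6/2. The receptor chains Il10ra and Il6ra fell by 3.15 and 1.76 in R6/2 and by 1.42 and 1.62 in wild type (limma adjusted p = 0.000246, 0.0213, 0.0145 and 0.0138). Lifr fell by 1.11 in wild type (limma adjusted p = 0.00542). In wild type, where 14.2% of all genes were called, the feedback genes Pias4 and Irf2bp1 rose and Pias1 fell. The Stat3 target Hif1a fell there as well.

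Few genes induced through ISGF3 were called for the drug. In R6/2, where only 1.10% of all genes were called, 0 of 43 were called by limma or limma-voom. Of these 43, 6 passed an unadjusted p of 0.05, and the median log2 change was -0.04. In wild type 4 of 43 fell and 0 rose, a share near the 8.30% of all genes called lower, with a median of 0.10: Ifit2 by 1.09, Eif2ak2 by 1.43, Trim30a by 0.78 and Sp110 by 1.19 (limma adjusted p = 0.0195, 0.0278, 0.0352 and 0.0429). Ifit2, which binds viral RNA, had 2.68 ± 0.51 log2 CPM in wild-type PLX3397 striatum and 3.77 ± 0.25 in wild-type vehicle striatum (SD, n = 3). The mean level of the 43 genes was 2.60 to 2.91 log2 CPM in R6/2 PLX3397 libraries, 2.49 to 3.19 in R6/2 vehicle libraries, 1.79 to 1.95 in wild-type PLX3397 libraries and 1.76 to 2.08 in wild-type vehicle libraries, so R6/2 and wild-type libraries did not overlap.

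Of Stat4, Stat5a, Stat5b and Stat6, 1 passed a test. Stat5b, which growth hormone and cytokine receptors activate, had 6.08 ± 0.30 log2 CPM in R6/2 PLX3397 striatum and 5.49 ± 0.42 in wild-type PLX3397 striatum (SD, n = 3). It rose by 0.60 ± 0.20 (limma adjusted p = 0.0425) although the groups overlapped, and was called in 10 of 23 alternatives. Stat4, which interleukin-12 activates in lymphocytes, averaged 1.31 ± 0.44 higher in R6/2 over drug and vehicle, with an adjusted p of 0.0549 in limma.

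Likeness to Irf7 over the 12 libraries was highest for Nif3l1 at a Pearson's r of 0.94, Trub2 at 0.94, Irgm1 at 0.94, Tmem19 at 0.94 and Abcg2 at 0.94. Irgm1, an interferon-inducible GTPase, averaged 3.97 log2 CPM in R6/2 PLX3397, 4.18 in R6/2 vehicle, 2.90 in wild-type PLX3397 and 2.83 in wild-type vehicle striatum. Irf9 was most like Lrrc41 (0.96), Morf4l1b (0.96), Rtp4 (0.95), Dis3l (0.95) and Nif3l1 (0.95), of which Rtp4 belongs to the list of genes induced through ISGF3. Stat3 was most like Tns1 at 0.90, Abcc6 at 0.89, Rfwd3 at 0.89, Helz2 at 0.88 and Rubcn at 0.87. These r values describe 12 libraries that share group and composition.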

How the data were processed

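The authors deposited 1 table of log2 values for 15397 genes in 12 libraries. Its name speaks of RPKM, but the deposited log2 values behave as log2 CPM with about 2 reads added: whole reads came out for 100% of values, within 0.1 read. The submitters' processing notes name STAR, featureCounts, edgeR, limma and the build mm10; versions and settings are not given in the sources used here. Libraries were prepared with an Illumina TruSeq protocol, per the labels.

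Group means were fitted over all genes and libraries with limma 3.58.1 (trended variance; R 4.3.3), p-values were adjusted by Benjamini-Hochberg over all 15397 genes, and calls used an adjusted p under 0.05. Comparisons were R6/2 against wild type and PLX3397 against vehicle, each within the other factor and averaged, and their interaction. The alternatives were another scaling, other added read numbers, a filter at 1 CPM, limma-voom on recovered reads, only the groups compared, a replicate block, removal of GC and length trends (known for 92.9% of genes), and leaving out libraries. On data simulated for R6/2 against wild type on vehicle over 15397 genes, limma recovered 43.3% of 2-fold and 83.3% of 4-fold changes.

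The 9 genes and all lists were chosen with earlier results of these data known. Genes named from a list are mostly those with the smallest p among called ones, up to 4 per direction, or the smallest p where none was called. Not every gene that met this rule is named, and some marker genes are named outside it. The comparison tables had 0 columns of other samples. RefSeq entries on GRCm38.p6 matched 15078 genes by ID and gave gene positions. The promoter windows were RefSeq windows, while exon lengths, transcript lengths and GC content came from the GENCODE mouse annotation. Stat genes other than those named are not reported here. Depth limits low genes, and reads are given for several of them; precision rests on 3 libraries per group.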

Additional observations from a re-analysis of the deposited data

Results flagged for a closer look

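In these genes the drug's change differed between R6/2 and wild type, by limma's test of the interaction at a Benjamini-Hochberg adjusted p under 0.05. Each value is the log2 change with PLX3397 in R6/2 minus that in wild type, and 17.0% of all genes passed the same test. Among the 9 genes it was -1.22 for Irf7, -0.89 for Irf3 and -2.28 for Irf8. Irf7 and Irf3 had estimates of opposite sign in the genotypes (-0.53 in R6/2 and 0.70 in wild type for Irf7, -0.41 in R6/2 and 0.48 in wild type for Irf3), while Irf8 was lower with the drug in both.

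Among genes induced through ISGF3 the interaction was 2.03 for Eif2ak2, 3.13 for Ddx60 and 1.16 for Ifit2. Ddx60 had 43 to 177 reads in R6/2 PLX3397 libraries, 15 to 44 in R6/2 vehicle libraries, 3 to 14 in wild-type PLX3397 libraries and 16 to 27 in wild-type vehicle libraries. Among sensors it was 1.43 for Tlr3 and 1.91 for Tlr4, which encode receptors for double-stranded RNA and lipopolysaccharide. Tlr4 rested on 19 to 28 reads in R6/2 PLX3397 libraries and 4 to 11 in wild-type PLX3397 libraries. Among feedback genes it was 1.10 for Pias1 and -0.75 for Pias4.

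Around Stat3 it was 1.19 for Lifr, -1.73 for Il10ra and 1.22 for Hif1a. Without the replicates 1 and 2 of R6/2 PLX3397, low in cortical genes, limma called 0 of all genes for the interaction, limma-voom with all libraries called 2596, and 2599 genes passed an unadjusted p of 0.05 in the fit without them.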

How the results depend on the processing

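Irf7 in R6/2 against wild type on vehicle, Irf5 with PLX3397 in wild type, Irf8 with PLX3397 in R6/2, and Irf7 and Irf9 averaged over drug kept their direction and their call under every alternative tried. Low reads limit Irf5 and Irf8 on PLX3397, and 3 libraries per group limit every call. The cause of the changes below was not tested, except that fits with fewer groups or libraries have less information.

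On vehicle, R6/2 against wild type, 3 of the 9 genes and 325 of all genes were called. Of the 9, 1 was called with only the groups compared, with the replicate block, without both choroid-rich libraries, and without both R6/2 PLX3397 libraries low in cortical genes. Leaving out single libraries gave 1 to 3 of the 9 and 1 to 561 of all genes; 1 gene was left without replicate 1 or replicate 2 of wild-type vehicle and 2 without replicate 2 of R6/2 vehicle. Of all genes, limma-voom called 145, the replicate block 40, the fit with the GC and length trend removed 865, both together 144, and the fit without the choroid plexus libraries 103. With the GC and length trend removed, the median log2 change was 0.10 over the 14305 genes tested, against 0.01 over all 15397, and the calls were split into 486 higher and 379 lower, against 95 and 230. On PLX3397, R6/2 against wild type, 5389 genes became 2934 with only the groups compared, 3524 without the GC and length trend, 2805 with the replicate block as well and 237 without both R6/2 libraries low in cortical genes, where 0 of the 9 were left; single libraries gave 3383 to 5630. Averaged over drug, 3454 genes became 1068 without those libraries, and single libraries gave 2257 to 3982 of all genes and 3 to 5 of the 9.

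For PLX3397 against vehicle in wild type, 2191 genes became 351 with only the groups compared, 1110 with the replicate block, 1150 without the GC and length trend, 643 with both, 3560 without both choroid plexus libraries and 1317 without both R6/2 libraries low in cortical genes; single libraries gave 228 to 2716. The trend removal split these calls into 850 higher and 300 lower, against 913 and 1278. Of the 9, 2 were called without both choroid plexus libraries, and single libraries gave 1 to 2. In R6/2, 169 genes became 102 with the filter at 1 CPM, 98 with only the groups compared, where 1 of the 9 was called, and 58 without both R6/2 libraries low in cortical genes; single libraries gave 125 to 381. Averaged over genotype, 194 genes became 129 with the filter. For the interaction, 2617 genes became 1432 with the replicate block, 567 (138 higher and 429 lower, against 1430 and 1187) without the GC and length trend, 0 with both, and 0 without both R6/2 libraries low in cortical genes; 2882 and 2599 genes passed an unadjusted p of 0.05 in these last limma fits, and limma-voom called 2596 with all libraries. Of the 9, 0 were called for the interaction in each of these 4 fits and 1 without both choroid plexus libraries. Single libraries gave 537 to 3532 of all genes and 0 to 3 of the 9.

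No consistent pairing of the mice by replicate number was seen. Deviations from group means of same-numbered libraries correlated between -0.35 and 0.40 over 18 pairs of libraries. Those of differently numbered libraries correlated between -0.46 and 0.45. With such wide ranges this check cannot exclude a batch shared by replicate number, so whether the replicate block is the better fit was not settled. Directions that turned were all of estimates that had not passed the test. Without the GC and length trend, with or without the replicate block, Irf3 turned to 0.067 and Stat3 to -0.089 in R6/2 against wild type on PLX3397, Irf3 to 0.215 averaged over drug, and the Irf2 interaction to -0.12. Without both choroid plexus libraries, Irf5 turned to -0.033 in R6/2 against wild type on vehicle, Stat3 to -0.015 for the drug in wild type, and the Stat3 interaction to 0.185. Without both R6/2 libraries low in cortical genes, Irf3 turned to 0.030 averaged over drug, Irf2 to 0.067, Irf9 to -0.044 and Stat2 to 0.095 for the drug in R6/2, the Stat3 interaction to 0.11, and Irf1 to -0.00030 in R6/2 against wild type on PLX3397. Over single libraries left out, the R6/2 against wild type estimates ranged from -0.041 to 0.22 for Irf5 on vehicle, and on PLX3397 from -0.060 to 0.15 for Irf1 and from -0.14 to 0.30 for Stat3. Averaged over drug they ranged from -0.12 to 0.049 for Irf3, from -0.053 to 0.078 for Stat2 and from -0.0078 to 0.21 for Stat3. For the drug they ranged from -0.015 to 0.42 for Stat3 in wild type, from -0.054 to 0.10 for Irf9 in R6/2 and from -0.036 to 0.14 for Irf3 averaged over genotype, and for the interaction from -0.024 to 0.19 for Irf2 and from -0.26 to 0.17 for Stat3.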
